A study of Mus musculus with 9 samples.

Results

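The 9 genes described here mark the pyramidal cells of hippocampal field CA1: Wfs1, Fibcd1, Pou3f1, Mpped1, Man1a, Neurod6, Lefty1, Zbtb20 and Lmo3. They were taken by name from the 31052 genes of the table, and all 9 had reads in all 9 libraries. Nuclear RNA had been sequenced from hippocampal pyramidal cells of wild-type mice whose activity was imaged in vivo during spatial navigation. The place group held 5 libraries from cells classed as place cells, which fire at particular positions, and the silent group held 4 libraries from cells classed as silent cells. Nuclei were phototagged after imaging and collected, and their polyadenylated RNA was amplified by a low-input method (SMART-Seq mRNA LP). The labels give neither the hippocampal field nor the number of nuclei or the age. Each title carries a mouse designation with its own last number, but what that number counts is not explained. If it does not count animals, the p-values measure only the spread between these libraries.

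The hippocampus proper is a chain of fields, in which CA3 pyramidal cells project to CA1 pyramidal cells and these to the subiculum. CA1 cells are the usual place cells of imaging work, because they lie closest to the surface that a microscope reaches. The identity of a CA1 cell is read from transcription factors that specify it during development and from enzymes and surface proteins that it goes on making in the adult, and none of the 9 genes is restricted to CA1 throughout the brain.

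Depth ran from 15315363 to 21974977 recovered reads in the place libraries and from 14045494 to 22361703 in the silent libraries. Levels are given as RPM, which is recovered reads per 1000000 recovered reads of that library. Place replicate 3 stood apart in the markers of astrocytes and dentate granule cells. Its summed level of 6 astrocyte markers was 2756 RPM, against 172 to 573 RPM in the other 8 libraries, and its summed level of 8 dentate granule cell markers was 408 RPM, against 21.4 to 135 RPM in the others. Aqp4, the water channel that defines astrocytes, measured 55.9 RPM in place replicate 3 and at most 24.9 RPM in silent replicates 2 and 3. It was at 0 in the other 4 place libraries and in silent replicates 1 and 4. Gfap, on the same list, was highest in silent replicate 3, at 58.8 RPM. That library also had the highest summed level of 10 interneuron markers, 898 RPM against 32.0 to 293 RPM in the others, with 643 RPM from Vip. The sum of 6 microglia markers was 187 RPM in silent replicate 4, 181 in place replicate 2 and 143 in place replicate 5. Elsewhere it was 5.55 to 40.5 RPM. Reads from Y-linked genes were present in place replicate 1 and in all 4 silent libraries and near 0 in the other 4 place libraries, so that for those 4 libraries the Y-linked level and the class of the cells cannot be told apart. The markers' folds and spread are therefore also given without place replicate 3 where that library moved them most.

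Promoter sequences of Neurod6, Wfs1 and Zbtb20 are shown because Neurod6 and Wfs1 were the furthest below their medians in place replicate 3, while Zbtb20 was above its median there. The windows are from RefSeq on the GRCm38.p6 build, 250 bases before to 50 bases after the annotated start, printed 5′ to 3′ along the gene. Capitals mark matches to CANNTG, the E-box that basic helix-loop-helix factors such as Neurod6 recognise; the motif is its own reverse complement, so a match covers both strands. The windows lie at chr6:55681214-55681513 on the minus strand for Neurod6, at chr5:36988933-36989232 on the minus strand for Wfs1 and at chr16:43247034-43247333 on the plus strand for Zbtb20.
Neurod6: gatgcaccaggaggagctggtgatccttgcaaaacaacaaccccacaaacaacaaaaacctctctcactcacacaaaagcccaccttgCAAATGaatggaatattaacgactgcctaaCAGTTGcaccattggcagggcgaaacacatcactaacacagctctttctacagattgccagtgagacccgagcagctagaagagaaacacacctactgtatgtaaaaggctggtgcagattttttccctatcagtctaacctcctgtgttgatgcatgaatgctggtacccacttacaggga
Wfs1: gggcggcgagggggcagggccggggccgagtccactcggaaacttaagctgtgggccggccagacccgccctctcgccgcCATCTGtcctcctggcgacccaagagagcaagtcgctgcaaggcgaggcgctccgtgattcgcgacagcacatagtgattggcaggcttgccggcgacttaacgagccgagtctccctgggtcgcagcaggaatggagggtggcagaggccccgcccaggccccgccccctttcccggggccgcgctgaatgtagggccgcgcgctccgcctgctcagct
Zbtb20: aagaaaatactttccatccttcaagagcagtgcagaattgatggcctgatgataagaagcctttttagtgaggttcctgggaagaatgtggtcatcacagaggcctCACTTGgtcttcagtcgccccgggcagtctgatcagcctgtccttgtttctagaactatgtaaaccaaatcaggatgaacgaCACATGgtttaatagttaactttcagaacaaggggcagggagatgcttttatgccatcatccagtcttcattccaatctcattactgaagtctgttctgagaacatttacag

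The Neurod6 and Zbtb20 windows held 2 matches each and the Wfs1 window held 1. Of 32851 promoter windows of the same length, 72.3% held at least 1 match and 39.6% held at least 2. RefSeq windows were found for 7 of the 9 genes. The Lmo3 window held 2 matches, those of Fibcd1 and Man1a held 0, and of the 2 Mpped1 windows the first held 0 and the second 1. Pou3f1 and Lefty1 were not matched.

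The transcription factors are given first. Neurod6, a basic helix-loop-helix factor of excitatory neurons in the cortex and hippocampus, measured 505, 285, 91.4, 309 and 307 RPM in place replicates 1 to 5, against 255, 348, 386 and 411 RPM in silent replicates 1 to 4. Place replicate 1 was the highest library and place replicate 3 the lowest, with all 4 silent libraries between them. The group means were 299 ± 147 RPM in place libraries (SD, n = 5) and 349.9 ± 68.2 RPM in silent libraries (SD, n = 4).

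Zbtb20 encodes a zinc finger repressor required for the specification of CA1 pyramidal cells, and is also made by astrocytes and dentate granule cells. It measured 2539, 3049, 2963, 1698 and 2432 RPM in place replicates 1 to 5, against 1915, 1961, 2266 and 1990.3 RPM in silent replicates 1 to 4. Place replicates 1, 2, 3 and 5 lay above every silent library, but place replicate 4 was the lowest of all, so the groups overlapped. The means were 2536 ± 538 RPM in place and 2033 ± 158 RPM in silent libraries. Oligodendrocyte markers were high in some of the same libraries. Place replicates 1, 2 and 3, which held the 3 highest Zbtb20 levels, also held the 3 highest summed levels of 8 oligodendrocyte markers, at 1359.8, 1971 and 3164 RPM, against 182 to 289 RPM in the other place libraries and 119.5 to 539 RPM in the silent libraries. Below these 3 the orders differed, and place replicate 5, the next highest for Zbtb20, was among the lowest for the markers. All 8 of these markers had a positive log2 fold, where 41.0% of all 15217 tested genes had a negative one. Of the 8, 4 had an unadjusted p under 0.05 in limma, where 5.03% of all tested genes had one, and 0 passed the test. The part of these markers in the Zbtb20 levels was not tested. In bulk libraries a change in the number of cells of a type cannot be told apart from a change in RNA per cell.

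Pou3f1, a POU-domain transcription factor, measured 106, 122, 72.7, 137 and 68.7 RPM in place replicates 1 to 5, against 54.3, 89.9, 141 and 229.6 RPM in silent replicates 1 to 4. The silent libraries held both the lowest and the highest value, and the place libraries all lay between these. Lmo3, a LIM-only protein that joins transcription factor complexes without binding DNA itself, measured 61.6, 88.2, 92.9, 116 and 60.4 RPM in place libraries and 104, 98.3, 166 and 130.4 RPM in silent libraries. Only place replicate 4 reached the silent range, where it lay above silent replicates 1 and 2. The Lmo3 means were 83.8 ± 23.3 RPM in place and 125 ± 30.8 RPM in silent libraries.

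Wfs1 encodes wolframin, a membrane glycoprotein of the endoplasmic reticulum and a widely used histological marker of CA1. It measured 159.5, 113, 30.4, 206 and 155 RPM in place replicates 1 to 5, against 168, 156, 102 and 166 RPM in silent replicates 1 to 4. Place replicate 3 stood far below all the others with 580 reads, and the other 4 place libraries lay among the silent values or, in place replicate 4, above them. The place mean was 133 ± 66.0 RPM with place replicate 3 (SD, n = 5) and 158 ± 38.0 RPM without it (SD, n = 4), beside 148 ± 31.0 RPM in silent libraries (SD, n = 4).

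Man1a, a Golgi mannosidase that trims N-linked glycans, measured 184, 114, 75.2, 253 and 149 RPM in place replicates 1 to 5, against 355, 162, 199.5 and 117 RPM in silent replicates 1 to 4. Silent replicate 1 was the highest library and place replicate 3 the lowest. Mpped1, a metallophosphoesterase-domain protein, measured 204, 132, 152, 179 and 204 RPM in place libraries and 233, 175, 171 and 191 RPM in silent libraries. It was the steadiest of the 9 genes, with the highest library 1.77 times the lowest and a coefficient of variation (CV, the SD over the mean) of 16.5% over 9 libraries.

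At the cell surface, Fibcd1, a transmembrane receptor with a fibrinogen-like domain that binds acetylated sugars, measured 65.2, 79.2, 67.5, 109.5 and 25.7 RPM in place replicates 1 to 5, against 51.6, 56.5, 82.0 and 98.8 RPM in silent replicates 1 to 4. Place replicate 5 was the lowest library for Fibcd1, not place replicate 3, which was near the middle. Lefty1, a secreted inhibitor of Nodal signalling, measured 43.0, 14.8, 8.79, 47.0 and 20.4 RPM in place libraries and 20.9, 32.2, 17.9 and 19.1 RPM in silent libraries. The place libraries held its 2 highest and its 2 lowest values, and the lowest, in place replicate 3, rested on 168 reads.

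**Figure D1:**
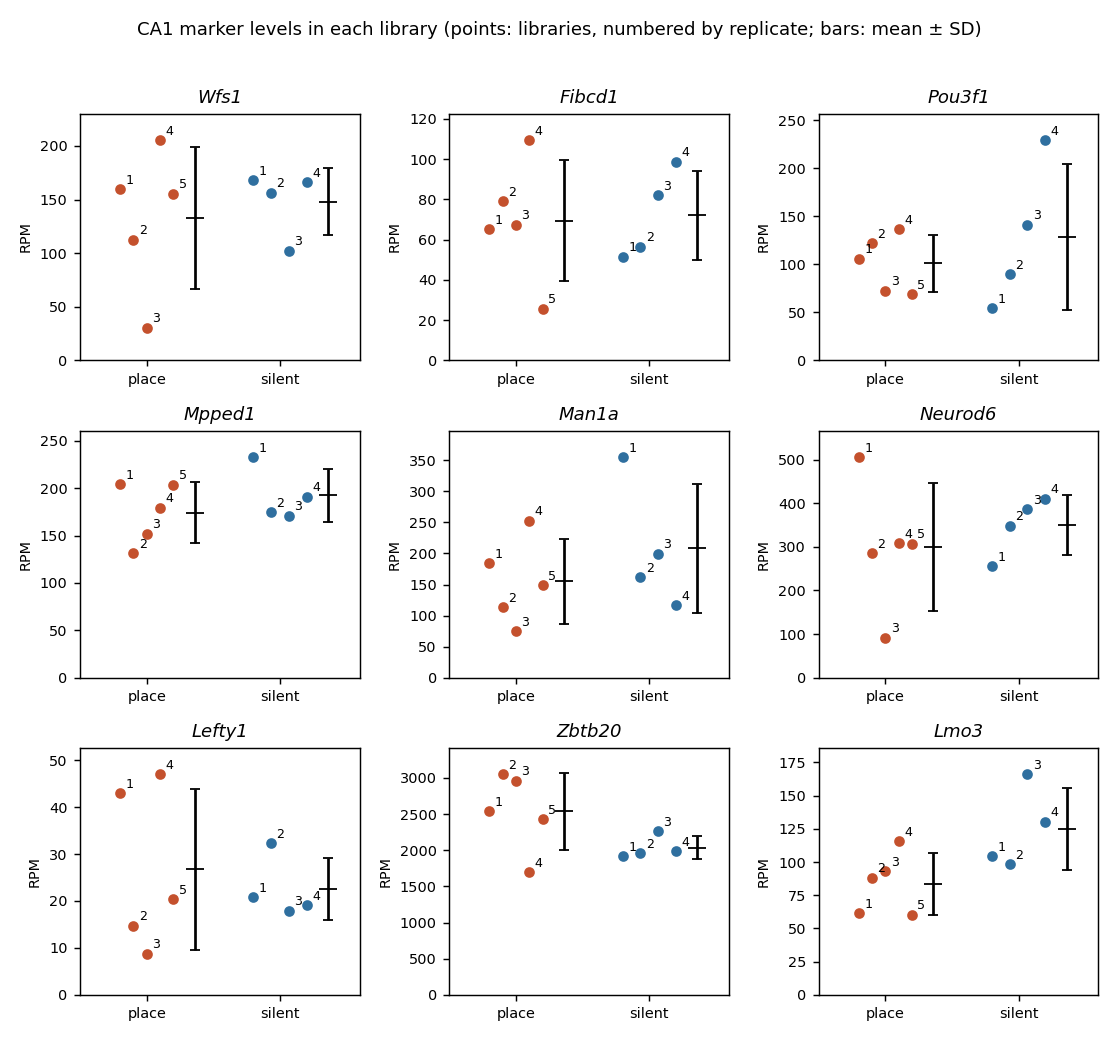
Level of each CA1 marker in RPM (vertical axis, linear from 0) in place libraries (left, 5 points) and silent libraries (right, 4 points), with replicate numbers beside the points and mean ± SD as bars. The groups overlap in all 9 genes, and place replicate 3 is the lowest point for Wfs1, Man1a, Neurod6 and Lefty1.

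Levels of different genes are compared per kilobase of annotated exon, as RPM per kb averaged over the 9 libraries. Neurod6 was the highest at 150 ± 53.4 RPM per kb (SD, n = 9), and it lay above the next gene, Zbtb20, in 8 of 9 libraries. Zbtb20 followed at 75.3 ± 15.4 RPM per kb and lay above Mpped1 in 9 of 9. The order of Neurod6 and Zbtb20 depended on their lengths over all annotated exons, 2150 and 30730 bases. In RPM, Zbtb20 was the higher of the pair, with a mean of 2312 against 322 RPM. Mpped1, at 42.5 ± 7.01 RPM per kb, lay above Wfs1 in 7 of 9. From there on neighbours changed places between libraries. Wfs1, at 36.8 ± 13.5 RPM per kb, lay above Pou3f1, at 29.5 ± 13.8 RPM per kb, in 5 of 9, and their ranges over libraries overlapped. Pou3f1 lay above Lmo3, at 19.9 ± 6.44 RPM per kb, in 8 of 9. Lmo3, Man1a at 18.5 ± 8.75, Fibcd1 at 14.9 ± 5.33 and Lefty1 at 14.2 ± 7.38 RPM per kb did not differ from their neighbours beyond their spread, with the higher mean ahead in 5, 6 and 4 of 9 libraries down this order.

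To describe how uniform CA1 identity was, each value was set against the gene's own median over the 9 libraries. Of the 81 values, 72 (88.9%) lay within 2-fold of that median, against 62.6% of the values of all tested genes and 74.3% of those of the 10535 tested genes with a mean of at least 10 RPM. These shares were not matched for level, and spread falls with level in these libraries, so they do not show that the markers were unusually steady. Of the 9 values outside, 4 were those of Wfs1, Man1a, Neurod6 and Lefty1 in place replicate 3. The others were Lefty1 in place replicates 1 and 4, Fibcd1 in place replicate 5, Man1a in silent replicate 1 and Pou3f1 in silent replicate 4. Place replicate 2 and silent replicates 2 and 3 had all 9 genes within 2-fold. Without place replicate 3, 66 of 72 values lay within 2-fold.

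The median deviation of the 9 genes, on the log2 scale, was 0.16, -0.16, -0.54, 0.37 and -0.0098 in place replicates 1 to 5, and 0.034, 0, 0.28 and 0.092 in silent replicates 1 to 4. The silent libraries thus lay within a narrower band than the place libraries, and place replicates 3 and 4 were the extremes. The difference in spread between the groups was not tested. Place replicate 4 was the highest library for Wfs1, Fibcd1 and Lefty1 and the lowest for Zbtb20.

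**Figure D2:**
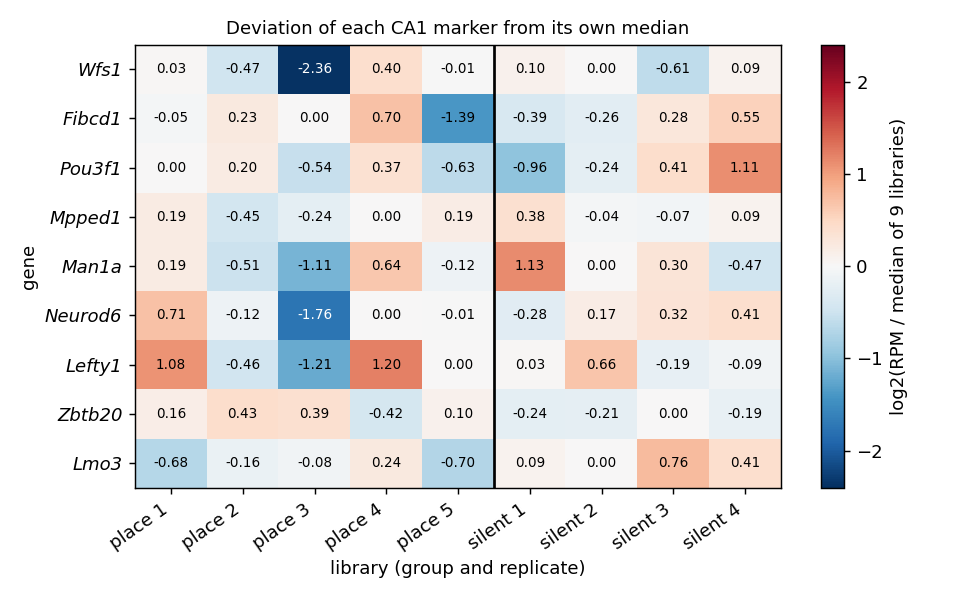
Deviation of each CA1 marker (rows) in each library (columns, place left of silent) from that gene's median over the 9 libraries, as log2 of the ratio; red is above and blue below the median. The place replicate 3 column holds the deepest values, -2.36 for Wfs1 and -1.76 for Neurod6, while Zbtb20 in the same column is at 0.39.

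The CV over the 9 libraries ran from 16.5% for Mpped1 to 52.2% for Lefty1, with a median of 35.8% over the 9 genes, against 70.6% over all tested genes and 53.6% over those with a mean of at least 10 RPM. CV falls with level in these libraries, and the comparison is closer when each gene is set against tested genes whose mean lies within 2-fold of its own. On that footing 4 of the 9 genes had a CV above the median of their level and 5 did not. Mpped1 was steadier than most, with 98.0% of 2392 genes of like level more variable. Man1a was more variable than most, with 15.8% of 2454 genes of like level above its CV of 47.2%. Wfs1, at 36.6%, lay in the middle, with 50.7% of 3083 genes above it. Neurod6 had a CV of 35.7%, and 22.5% of 1212 genes of like level were more variable. The markers were thus about as variable as other genes of their level, and not uniformly steadier.

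Within the groups, 7 of the 9 genes had the larger CV in place libraries by the values given here for Wfs1 (49.7% in place, 20.9% in silent), Neurod6 (49.0% and 19.5%), Lefty1 (64.1% and 29.2%), Zbtb20 (21.2% and 7.78%), Fibcd1 (43.5% and 30.7%), Lmo3 (27.8% and 24.7%) and Mpped1 (18.4% and 14.7%). Pou3f1 (29.5% in place, 59.1% in silent) and Man1a (44.0% and 49.7%) had the larger CV in silent libraries. Without place replicate 3 the place CV was 24.02% for Wfs1 and 29.4% for Neurod6, and the same count of 7 genes had the larger CV in place libraries. These differences were not tested. The share of all tested genes with the larger CV in place libraries was not computed, so whether the count is particular to these markers cannot be said.

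**Figure D3:**
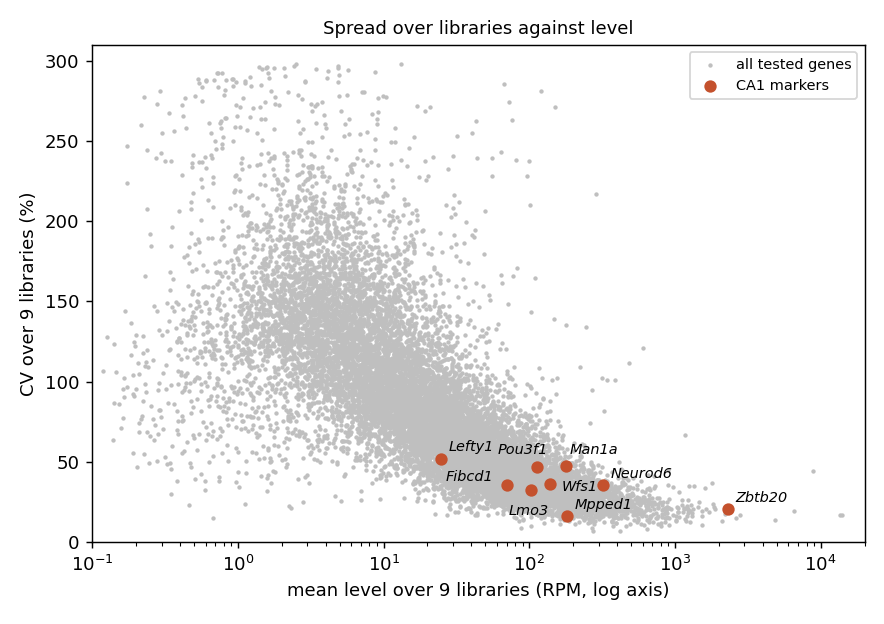
CV over the 9 libraries in percent (vertical axis) against mean level in RPM (horizontal log axis) for tested genes (grey) and the 9 CA1 markers (orange, named). The markers lie inside the band of genes of their level, with Mpped1 near its lower edge at 16.5% and Man1a in its upper part at 47.2%.

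The sum over the 9 genes was steadier than its parts, at 3868, 3996, 3553, 3054 and 3422 RPM in place replicates 1 to 5 and 3157, 3079, 3532 and 3353 RPM in silent replicates 1 to 4. Zbtb20 dominated that sum, with 55.6% to 83.4% of it in place libraries and 59.4% to 64.2% in silent libraries. Without Zbtb20 the sums were 1329, 947, 591, 1356 and 990.1 RPM in place libraries and 1242, 1118, 1266 and 1362 RPM in silent libraries. Place replicate 3 was then the lowest of the 9, and place replicates 2 and 5 were next.

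In place replicate 3, Wfs1 stood at 0.192 and Neurod6 at 0.278 times the median of the other 8 libraries. Lefty1 stood at 0.426 and Man1a at 0.434 times that median. The remaining genes were nearer to it, with Pou3f1 at 0.638, Mpped1 at 0.820, Lmo3 at 0.917, Fibcd1 at 0.935 and Zbtb20 at 1.39 times. The reduction was thus uneven over the 9 genes, from about the median for Fibcd1 and Lmo3 to 0.192 times for Wfs1. General excitatory neuron genes summed to 2647 RPM over 12 genes in that library, within the 2331 to 3380.4 RPM of the other 8, of which only place replicate 5 was lower. Slc17a7, the vesicular glutamate transporter of these neurons, was the lowest of the 9 libraries there at 319.9 RPM, while Camk2a, a kinase subunit of excitatory synapses, measured 917 RPM against 803 to 1421 RPM elsewhere.

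A second list of 5 genes with CA1 enrichment gave the same library as the lowest, at 467 RPM against 642 to 1078 RPM in the other 8. Ccn3, a secreted matrix-associated protein, had 0 reads in place replicate 3 and reads in all 8 others. Of the 5, 1 had a positive and 4 a negative log2 fold, and 0 passed the test. Beside this, place replicate 3 had the highest summed levels of markers for astrocytes, oligodendrocytes, dentate granule cells and subiculum. The subiculum sum of 622 RPM was nearly all Fn1, an extracellular matrix gene, at 612 RPM, while Slc17a6, a glutamate transporter on the same list, was at 0 there. Prox1, the transcription factor of dentate granule cells, was also at its highest there, at 113 RPM, against 3.92 to 67.4 RPM elsewhere. The part of these lists in the low marker levels was not tested.

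The 9 genes were next set against markers of neighbouring hippocampal fields, per kilobase of exon and with Zbtb20 left out because granule cells and astrocytes also make it. The mean of the other 8 genes was 52.7, 34.8, 18.7, 46.7 and 36.7 RPM per kb in place replicates 1 to 5 and 38.9, 41.7, 45.4 and 51.0 RPM per kb in silent replicates 1 to 4. It was above the mean of each of the CA3, CA2, dentate and subiculum lists in all 9 libraries. The margin was narrowest in place replicate 3, at 3.18 times CA3, 6.38 times CA2, 2.07 times dentate and 1.40 times subiculum. The subiculum ratio there rested on 1 gene, Fn1, which gave 612 of the 622 RPM of that list. Neurod6, a factor of excitatory neurons in general, weighed most in the CA1 mean. It averaged 150 RPM per kb over the 9 libraries, against 14.2 (Lefty1) to 42.5 (Mpped1) RPM per kb for the rest. No ratio was computed without Neurod6.

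Over CA3 the ratio was 20.9, 7.05, 3.18, 25.1 and 7.91 in place libraries, against 14.8, 17.8, 31.0 and 78.2 in silent libraries. Place replicates 2, 3 and 5 lay below every silent library and place replicates 1 and 4 lay within the silent range. Of the 8 CA3 markers, 7 were tested, all 7 with a positive log2 fold, and 0 passed the test. Positive folds were the more common over the whole table, where 41.0% of 15217 tested genes had a negative one. The summed level of the CA3 markers was 153 ± 72.4 RPM in place libraries and 84.3 ± 31.7 RPM in silent libraries. Nectin3, an adhesion molecule, measured 21.3 ± 20.1 RPM in place and 12.8 ± 15.0 RPM in silent libraries, and Grik4, a kainate receptor subunit, measured 14.1 ± 6.90 RPM in place and 10.2 ± 8.57 RPM in silent libraries. Of the other fields, the dentate list had 8 tested genes (7 positive folds, 1 negative), the CA2 list 5 (2 positive, 3 negative) and the subiculum list 3 (1 positive, 2 negative), and 0 passed the test in each.

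**Figure D4:**
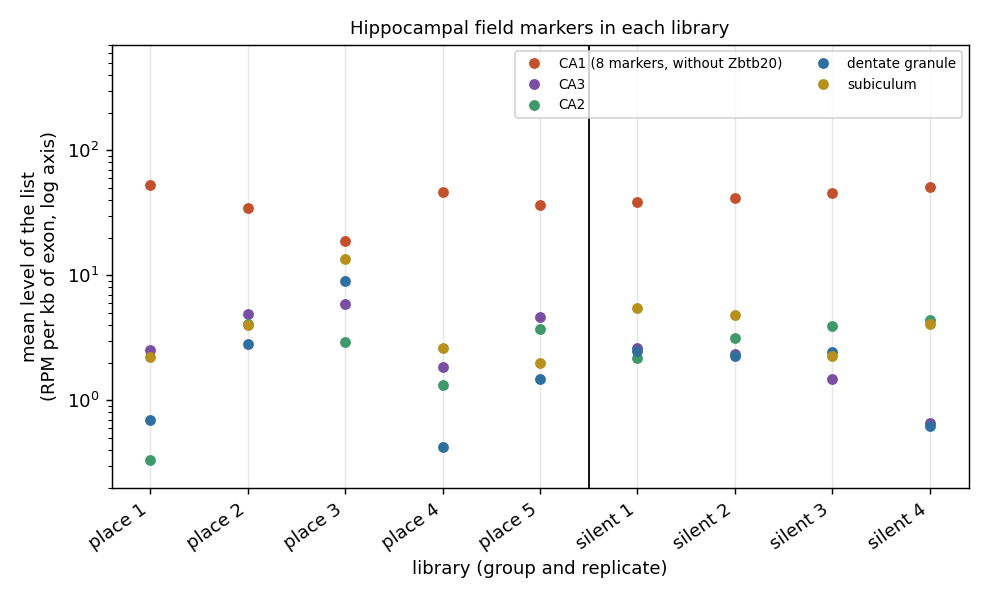
Mean level of 5 marker lists in RPM per kb of exon (vertical log axis) in each library (horizontal axis, place left of silent). The CA1 points leave out Zbtb20, and on average Neurod6 weighs most in them. They lie above the other fields in all 9 libraries, and are closest to them in place replicate 3, at 18.7 RPM per kb.

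The comparison between classes asked whether CA1 identity genes differ between place and silent cells. In limma on log2(value + 1) with libraries scaled to a common total, 0 of the 9 genes passed an adjusted p of 0.05, and 0 had an unadjusted p under 0.05. The background was 0.00% of the 15217 tested genes at the adjusted threshold, 5.03% at the unadjusted one, and 1.27% when only genes lower in place libraries were counted. The smallest adjusted p of any gene was 0.419. With voom on the recovered reads, 4 genes passed, and none of the 9 was among them. The groups overlapped in RPM for all 9 genes, where 1.89% of all tested genes did not overlap and 0.605% lay lower in every place library than in every silent one.

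Of the 9 log2 folds, 7 were negative and 2 positive, with a median of -0.20, whereas 41.0% of all tested genes had a negative fold and their median was 0.20. Without place replicate 3 the 9 genes' median was -0.096, with 6 negative and 3 positive folds, and leaving out each library in turn it ran from -0.35 to -0.096. The all-gene median hardly moved with trimmed mean of M-values scaling of the libraries, at 0.20, but was 0.012 after quantile normalization. Among the 8187 genes that reached the filter in all 9 libraries it was -0.0023. The 9 genes' median was -0.18 after quantile normalization and -0.20 with that filter. The contrast with all tested genes thus depended on which genes were counted and on the normalization. No p is given for the 9 genes together.

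The fold nearest to the threshold was that of Lmo3, at -0.59 (SE 0.32, 95% interval -1.27 to 0.098, limma adjusted p = 0.862), with 4 of 5 place libraries below every silent library. Zbtb20 had a log2 fold of 0.29 (SE 0.16, 95% interval -0.061 to 0.65, limma adjusted p = 0.862), with 4 of 5 place libraries above every silent library. Neither difference passed the test.

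The tightest interval around 0 for the other genes was that of Mpped1, with a log2 fold of -0.15 and bounds of -0.67 and 0.36 (limma adjusted p = 0.919). Wfs1 had a log2 fold of -0.38 (SE 0.49, 95% interval -1.44 to 0.68, limma adjusted p = 0.898). That fold rested on place replicate 3, and without it was 0.091 (SE 0.28, limma adjusted p = 0.975). Neurod6 likewise had -0.39 (SE 0.40, 95% interval -1.26 to 0.48, limma adjusted p = 0.866) with that library and -0.011 (SE 0.24, limma adjusted p = 0.997) without it. Man1a had -0.42 over all libraries and -0.19 without place replicate 3, and it ran from -0.66 without silent replicate 4 to -0.12 without silent replicate 1.

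Pou3f1 had a log2 fold of -0.20 (95% interval -1.11 to 0.70) and Fibcd1 -0.15 (95% interval -1.15 to 0.85). Lefty1 was the least determined, at 0.017 with bounds of -1.62 and 1.66, and its sign changed under 7 of the 20 alternative settings. Changes within these bounds were compatible with the values of these libraries. The smallest change that could have been detected was not computed.

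**Figure D5:**
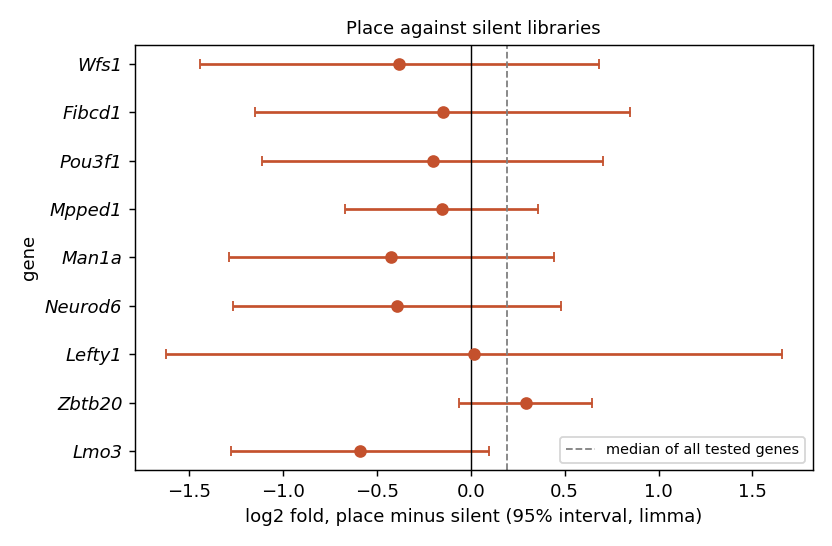
Log2 fold, place minus silent, of each CA1 marker (points) with 95% interval from limma (bars); the dashed line is the median of all tested genes, 0.20. All 9 intervals cross 0, with Lefty1 the widest and Zbtb20 the narrowest.

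Close relatives of the 9 genes were examined as a list of 14, of which 12 were tested and 0 passed the test, with 7 positive and 5 negative log2 folds. Neurod1, a factor of the same family as Neurod6, measured 4.77, 18.9, 32.9, 32.0 and 36.9 RPM in place replicates 1 to 5, against 180.3, 19.3, 55.5 and 81.2 RPM in silent replicates 1 to 4. Silent replicates 1, 3 and 4 lay above every place library and silent replicate 2 did not. Its log2 fold was -1.63 (SE 0.71, limma unadjusted p = 0.0410, adjusted p = 0.862). Neurod2 measured 92.2 ± 43.9 RPM in place and 97.2 ± 51.5 RPM in silent libraries. Averaged over the 9 libraries, Neurod6 stood at 150 RPM per kb, above Neurod2 at 30.04 and Neurod1 at 18.8 RPM per kb. Lefty1 stood at 14.2 RPM per kb, above its paralogue Lefty2 at 0.0118 RPM per kb. Lmo3 stood at 19.9 RPM per kb, below Lmo4 at 42.8 RPM per kb.

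How the 9 genes moved with each other was described by Pearson's r, over the 9 libraries, between each gene and the mean of the other 8 on the centred log2 scale. All genes of a library share its depth and cell makeup, and no p is given. The coefficient was 0.77 for Neurod6, 0.72 for Wfs1 and 0.65 for Lefty1. It was 0.47 for Man1a, 0.41 for Pou3f1, 0.28 for Mpped1, 0.27 for Fibcd1 and 0.19 for Lmo3. For Zbtb20 it was -0.74, the only negative value. Place replicates 3 and 4 lay farthest from the median of the mean pattern, and over the other 7 libraries the coefficient was 0.60 for Neurod6, -0.11 for Wfs1, 0.040 for Lefty1, -0.24 for Man1a and -0.50 for Zbtb20. The likeness of Wfs1, Lefty1 and Man1a to the other markers thus rested on those libraries. Among tested genes, those most like the mean of the 9 included Stum (r = 0.931), Cacybp (0.929), Mettl1 (0.921) and Trpc1 (0.919). All 4 were lowest in place replicate 3. That follows largely from their choice, because they were picked from all tested genes for high r over 9 libraries. Place replicate 3 was farthest out in the mean pattern, at -0.72. With place replicates 3 and 4 left out, the coefficients over 7 libraries were 0.757 for Stum, 0.726 for Cacybp, 0.737 for Mettl1 and 0.801 for Trpc1. Those 7 libraries had also taken part in the choice, so these values are not an independent check.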

How the data were processed

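The authors deposited 1 table of normalized read signal, with 9 libraries and 31052 genes. Per the submitters' processing notes, STAR, HTSeq and the genome build GRCm39 were used, and none of the sources used here gives a version, an annotation or a strand setting. The deposited signal carries 1 factor per gene and none per library, as found from the values: in 8875 of 8894 genes with reads in all libraries (99.8%), it matched within 0.01 log2 a trimmed mean of M-values factor. Dividing by it gave whole reads, within 0.05, for 29957 genes (96.5%), and at most 0.396% of a library's signal was not recovered. Libraries were scaled to a common total of recovered reads. The test was limma (version 3.58.1, R version 4.3.3, trend option on), place minus silent, on log2(value + 1). It took the 15217 genes that reached 10 in 4 or more libraries, and p-values were adjusted by Benjamini-Hochberg over all of them, with 0.05 as the threshold. Folds on this log2(value + 1) scale understate changes of low genes. Exon lengths for levels per kilobase come from a GRCm38 annotation, not the authors' build. The promoter windows carry coordinates of the RefSeq table's build, and no other gene coordinates are printed. Without a stated strand setting, reads of overlapping antisense genes cannot be told apart. Depth limits precision through counting error, which is small for the 9 genes. All 9 are named. From each other list the first 2 genes in it could be named. The further list genes named (Lmo4, Lefty2, Vip) were chosen after their values were seen, as was the attention to place replicate 3. Results for some genes that this rule would name are not reported here. The genes and lists were chosen with earlier results of these data known.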

Additional observations from a re-analysis of the deposited data

How the results depend on the processing

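Across 20 alternative settings, 0 of the 9 CA1 markers passed the test, and the signs of the Man1a, Zbtb20 and Lmo3 folds held in all 20. Genes called over the whole table numbered 0, except 4 with voom, 223 (all lower in place) with Y-linked level as a covariate, and 0 to 1 when each library was left out in turn (1 without place replicate 1). The markers' median log2 fold was -0.20, with 0.076 under that covariate and -0.39 with genes detected in the fit. The Y-linked level and the leaving out of place replicate 3 and silent replicates 1 and 4 together were chosen after seeing the data.

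Signs turned as follows. Lefty1 gave -0.18 after quantile normalization, -0.17 with genes detected in the fit, and -0.22, -0.25, -0.0069, -0.081 and -0.048 without place replicates 1 and 4 and silent replicates 1, 3 and 4, over a leave-one-out range of -0.25 to 0.35. Mpped1 gave 0.062 with genes detected in the fit, 0.076 with the Y-linked level, and 0.034 without the 3 libraries. Wfs1 gave 0.12 with the Y-linked level, 0.29 without the 3 libraries, and -0.60 to 0.091 when each was left out. Neurod6 gave 0.60 with the Y-linked level. All folds with the Y-linked level rested in effect on place replicate 1 against the silent libraries. Leave-one-out folds ran from -0.35 to 0.17 for Fibcd1 and from -0.55 to 0.14 for Pou3f1. None of these folds passed the test, and the cause was not tested. The median CV of 35.8% ran from 25.4% without the 3 libraries to 41.6% on the values as deposited. No paired analysis was possible because no last number in the library titles occurs in both groups. The replicate numbers used here were assigned within each group and are not in the titles, so equal numbers do not mark pairs.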
